A study of Rattus norvegicus with 92 samples.

Results

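Of the 20508 rows that each of the 8 deposited tissue tables lists, 243 were liver-restricted: their mean level in air livers was at least 60 CPM, or counts per 1000000, and at least 20 times the mean level in the air samples of each of the 7 other tissues. The CPM is a row's value as a share of the sum of its sample's column. All 243 are transcripts by their Ensembl identifiers. They are 11.8% of the 2066 rows that reached 60 CPM in air livers, and the other 1823 rows of that level serve below as the rows to set them against. The air levels chose these rows, so their height in liver and their low values in other air samples are a description and no finding. Which of them differed between exposures was not part of the choice, although the air samples of liver and of the 7 other tissues entered both. The choice favours rows that are high in the air livers and low in the other air samples.

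RNA was sequenced from male Wistar-Kyoto rats, 12 to 13 weeks old by the methods of the study, with no genotype or transgene given for any group. The controls breathed filtered air and the treated rats breathed acrolein at 3.16 ppm, in each case for 4 h in nose-only tubes. By the methods of the study, the acrolein exposure began with rising steps of lower concentration. Tissues were taken straight after the exposure. Liver has 5 air and 6 acrolein samples. The other tissues are adipose, adrenal, hippocampus, hypothalamus, lung, muscle and nasal epithelium, with 5 to 8 air samples each, after a pair of adipose air samples with the same number was averaged, and 4 to 6 acrolein samples each. Each liver sample is a portion of frozen organ, so it holds all cell types of that portion, and fewer cells of a type and less RNA per cell cannot be told apart. The study left out 2 liver samples that did not group with their tissue before the tables were made.

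Hepatocytes, the main cells of the liver, make most proteins of the blood plasma, among them albumin, carrier proteins, clotting factors, complement and apolipoproteins. They also hold the enzymes of bile acid synthesis, of the urea cycle and of much of drug metabolism, and many of these genes are read almost nowhere else, because a set of liver-enriched transcription factors drives them. Acrolein is a reactive aldehyde in smoke that irritates the airways, where most of an inhaled dose is taken up. The tables pair no symbols with the identifiers, and 0 of the 20508 identifiers matched the reference table used here. The rows are therefore given by identifier, with no role for any single row, and the tissue labels were not checked against named marker genes.

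Several samples stood apart in these rows. Outside the liver, hippocampus air replicate 2, nasal epithelium acrolein replicate 12 and adipose acrolein replicate 10 held more of the liver-restricted rows than any other sample of their tissue, as described below. Among the livers, air replicates 1 and 2 have labels with a capital prefix while the 9 others have a lower-case one, and their totals of 25850677 and 22761006 recovered reads were the highest. Air replicate 5 had the fewest, 9035061 reads, and the 6 acrolein livers had 14590235 to 19831724. Results in liver are given with all 11 livers and, where they rest on them, without these.

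The liver-restricted rows held between 36.5% and 40.8% of each liver's total. Their mean level in air livers had a median of 346 CPM, with quartiles of 145 and 1016 CPM. It reached 1000 CPM in 62 rows and 10000 CPM in 8 rows, and lay under 100 CPM in 30 rows. A CPM is not divided by transcript length, so this order is one of shares of a library and not of molecules. The most abundant row, ENSRNOT00000109381, named after its values were seen, held 92535 ± 8792 CPM in air livers (SD, n = 5), and the 10 most abundant rows held 20.7% of the air livers' total.

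Together the 243 rows held 40.8%, 39.1%, 37.7%, 37.5% and 39.4% of the total in air livers 1, 2, 5, 7 and 8. In acrolein livers 9, 11, 13, 14, 15 and 16 they held 36.9%, 39.9%, 39.0%, 39.4%, 36.9% and 36.5%. The groups overlapped, with the highest share in an air liver and the lowest in an acrolein liver. The mean share was 38.9% ± 1.36 in air livers (SD, n = 5) and 38.1% ± 1.51 in acrolein livers (SD, n = 6), a difference smaller than the spread within either group. With only the lower-case livers the difference of means was -0.10 percentage points, against -0.80 with all livers. No test was made of a sum over rows chosen on these livers.

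**Figure D1:**
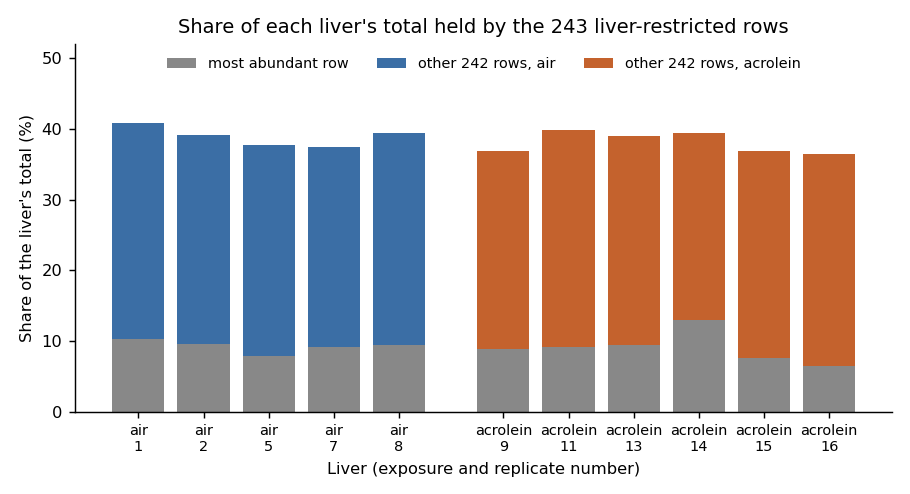
Share of each liver's total (%) held by the 243 liver-restricted rows, 1 bar per liver, 5 air and 6 acrolein; the grey part is the most abundant row and the coloured part the 242 others. The totals lie between 36.5% and 40.8% with overlapping groups, and acrolein replicate 14 has the largest grey part, 12.99%.

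The most abundant row varied more between acrolein livers than the sum of all 243 rows did. ENSRNOT00000109381 held 10.3%, 9.63%, 7.89%, 9.07% and 9.41% of the total in air livers 1, 2, 5, 7 and 8, and 8.83%, 9.19%, 9.46%, 12.99%, 7.55% and 6.51% in acrolein livers 9, 11, 13, 14, 15 and 16. Acrolein replicate 14 was above and acrolein replicates 15 and 16 were below every air liver. Its mean share was 9.25% ± 0.879 in air (SD, n = 5) and 9.09% ± 2.21 in acrolein livers (SD, n = 6). The log2 fold change was -0.06 with a 95% interval from -1.24 to 1.11 (limma, adjusted p = 0.967), so neither direction was shown. Limma draws the variance of a row towards a trend over all rows. The interval is wider than the spread of this row between the livers and does not measure that spread. Without this row the others held 28.4% to 30.6% of the total in air livers and 26.5% to 30.7% in acrolein livers. Acrolein replicate 14 was then the lowest of all livers.

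Single livers were often extreme across many of the rows. Air replicate 1 was the highest liver in 61 of the 243 rows and the lowest in 17, and air replicate 2 was the highest in 36 and the lowest in 47. Acrolein replicate 14 was the highest in 37 and the lowest in 45, so it was an extreme in 82 rows, while acrolein replicate 13 was an extreme in only 6 rows. Among the 1823 other rows of at least 60 CPM, air replicate 1 went the other way: it was the highest liver in 14.8% and the lowest in 25.8% of them, against 25.1% and 7.00% of the liver-restricted rows. This difference was not tested, since rows of the same library are not replicates.

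Rows also differed in how far the livers of a group spread. The coefficient of variation over air livers had a median of 25.3% and ran from 6.17% to 82.8%. Over acrolein livers the median was 20.1%, from 5.54% to 89.0%. The other rows of at least 60 CPM had medians of 23.9% in air and 16.8% in acrolein livers, close to these. With the 3 lower-case air livers alone, the median for the liver-restricted rows was 19.9%. It exceeded 50% in 13 rows in air and in 6 rows in acrolein livers.

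The row with the largest spread in air, ENSRNOT00000067643, was chosen after its values were seen. It had 394, 1261, 4984, 1306 and 3756 normalized counts in air livers 1, 2, 5, 7 and 8, where a normalized count is the number of reads divided by the size factor of the sample. In acrolein livers 9, 11, 13, 14, 15 and 16 it had 4731, 4551, 3841, 4112, 3625 and 5247. Air replicates 5 and 8 were within the range of the acrolein livers, and the 3 other air livers were far below it. The log2 fold change was 1.39 with a standard error of 0.47, which did not pass the threshold (limma, adjusted p = 0.152). DESeq2 gave an adjusted p of 0.271, and with each liver omitted in turn both tools called the row 1 of 11 times.

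The comparison of acrolein with air in liver asked whether the rows that mark the organ moved with the exposure. Limma called 2 of the 243 rows, 1 higher and 1 lower, where a call needs an adjusted p not over 0.1 and a change beyond 1.2-fold in either direction, as in the methods of the study. That is 0.823% of them, against a background of 0.368% of the 18769 rows tested, 0.197% called higher and 0.17% called lower. Of the other rows of at least 60 CPM, 0.549% were called. All 243 rows passed the filter on low values, since all are abundant in air livers. An unadjusted p under 0.05 was found in 59 of them, or 24.3%, against 19.2% of all rows tested and 29.1% of the other rows of at least 60 CPM. Of these 59 rows, 14 were higher and 45 lower in acrolein livers. Among all rows tested, 1931 (10.3%) were higher and 1667 (8.88%) lower at that limit, and among the other rows of at least 60 CPM 267 were higher and 263 lower.

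The median log2 fold change of the 243 rows was -0.09, with quartiles of -0.33 and 0.17, and the median over all rows tested was -0.00 with quartiles of -0.31 and 0.33. The value was below 0 in 142 rows and above 0 in 101. With 1 liver left out the median stayed between -0.15 and -0.04, and with the lower-case livers alone it was -0.04. Rows chosen in the same way on the acrolein samples in place of the air samples had a median of -0.03. That choice gave 235 rows, of which 225 were among the 243. Each choice favours rows that are high in its own group, so a smaller shift to lower values was built into the choice on acrolein samples.

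DESeq2 on the recovered reads called 40 of the 243 rows, 8 higher and 32 lower in acrolein livers. This is 16.5% of the rows, against 13.4% of the 12697 rows for which it gave an adjusted p and 15.4% of the other rows of at least 60 CPM. The 8 rises are 3.29% of the rows, against 6.21% of all rows. The 32 falls are 13.2%, against 7.17% of all rows and 9.51% of the other rows of at least 60 CPM. Rows chosen on the acrolein samples, a choice that favours rows high in acrolein livers, gave 36 calls, 10 higher and 26 lower. edgeR's quasi-likelihood test called 7 of the 243 rows, 1 higher and 6 lower, or 2.88%, against 1.53% of all rows, 0.442% higher and 1.09% lower. Of the other rows of at least 60 CPM it called 2.52%, 0.439% higher and 2.08% lower.

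The capital-labelled air livers were the highest in many of these falls. Air replicates 1 and 2 were both above all 9 other livers in 20 of the 32 rows that DESeq2 called lower. A row called lower is chosen for high air livers, so this count is partly fixed by the call, as is that for the rises. The same count among all rows called lower was not made. Over all 243 rows, called or not, both replicates were above the 9 others in 44 rows, or 18.1%, against 8.49% of all rows tested. They were both below the 9 others in 3 of the 8 rows called higher, and in 7.82% of the 243 rows against 8.51% of all rows tested. The rule used the mean of the air livers, so rows high in these 2 livers were favoured by the choice. These counts were not made among the other rows of at least 60 CPM. With the 9 lower-case livers alone, 3 air and 6 acrolein, DESeq2 called 5 of the 243 rows, 4 higher and 1 lower, or 2.06% against 1.21% of all rows. Limma called 0 of them in those livers, against 0.049% of all rows, and edgeR also called 0, against 0.0272% of all rows. In edgeR 30 of them had an unadjusted p under 0.05, or 12.3% against 8.84% of all rows. In limma 33 of the rows had an unadjusted p under 0.05, or 13.6% against 9.58% of all rows. All 32 falls and all 8 rises kept their sign there, with a median log2 fold change of -0.47 in place of -0.65 for the falls and of 0.51 in place of 0.67 for the rises, and 1 of the falls and 3 of the rises were called. This fit also holds fewer samples. Both capital-labelled livers are air livers and all 6 acrolein livers are lower-case. Label and exposure can thus not be fully told apart with all livers, and the part of the 2 livers in these falls was not tested.

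The count of calls changed when some single livers were left out. Without air replicate 5 limma called 32 of the 243 rows, 7 higher and 25 lower, or 13.2% against 9.31% of all rows, while leaving out air replicate 7 gave 17 calls against 5.04% of all rows. Each of the 9 other omissions gave 0 to 2 calls. DESeq2 called 63 rows without air replicate 5, or 25.9% against 21.3% of all rows, and 12 rows without air replicate 1, or 4.94% against 3.64%. In each of these fits the count of liver-restricted rows rose and fell with the count over all rows.

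**Figure D2:**
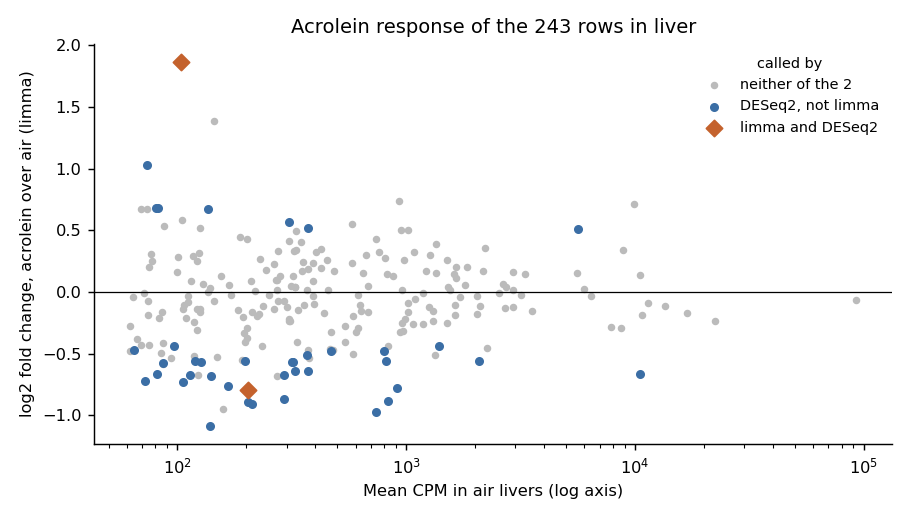
Log2 fold change of acrolein over air livers (limma, 5 air and 6 acrolein) against mean air level in CPM on a log axis, 1 point per liver-restricted row. Diamonds are the 2 rows that limma and DESeq2 called, blue points the 38 that DESeq2 called and limma did not, grey points the rest; most blue points lie below 0.

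The calls of DESeq2 were counted along the level of the rows. Among the 81 most abundant rows, at 739 CPM or more, DESeq2 called 1 higher and 8 lower, and among the next 81 it called 2 higher and 9 lower. Among the 81 least abundant rows, at 62.2 to 210 CPM, it called 5 higher and 15 lower, and both rows that limma called were there. In the same order, 11.1%, 13.6% and 24.7% of the rows were called, against 12 of 80, 38 of 321 (11.8%) and 214 of 1337 (16.0%) other rows within the same levels. With the lower-case livers alone DESeq2 called 1, 0 and 4 of them. The median log2 fold change was -0.03, -0.07 and -0.16 from the most to the least abundant rows, and -0.01, -0.05 and -0.09 with the lower-case livers alone.

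The row that limma called higher was ENSRNOT00000012819. It had 2797, 1012, 2521, 1524 and 782 normalized counts in air livers 1, 2, 5, 7 and 8, and 6140, 3802, 6073, 10817, 3547 and 5609 in acrolein livers 9, 11, 13, 14, 15 and 16. Every acrolein liver was above every air liver, and acrolein replicate 14 was far above the rest. The mean was 5998 ± 2617 in acrolein (SD, n = 6) and 1727 ± 897 in air livers (SD, n = 5), a 3.47-fold difference of means. The log2 fold change was 1.86 with a standard error of 0.34 (limma, adjusted p = 0.0657). DESeq2 gave an adjusted p of 0.000124 and edgeR 0.0585, and over 21 alternatives it ranged from 0.000124 to 0.157. With each liver omitted in turn, limma still called the row 5 of 11 times and DESeq2 11 times. With the lower-case livers the log2 fold change was 1.95 (limma, adjusted p = 0.104), no longer called, while DESeq2 called it (adjusted p = 0.000192). In air liver its mean was 104 CPM, and no other tissue had a mean over 0.418 CPM in air. That mean was in hippocampus, where air replicate 2 had 2.51 CPM and all other samples had 0.

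The row that limma called lower was ENSRNOT00000022254. It had 4000, 3540, 3155, 3050 and 3241 normalized counts in air livers 1, 2, 5, 7 and 8, and 2057, 1880, 2050, 1548, 2787 and 1599 in acrolein livers 9, 11, 13, 14, 15 and 16. Every acrolein liver was below every air liver, with acrolein replicate 15 the closest. The mean was 1987 ± 448 in acrolein (SD, n = 6) and 3397 ± 383 in air livers (SD, n = 5). The log2 fold change was -0.79 with a standard error of 0.16 (limma, adjusted p = 0.0884). DESeq2 gave an adjusted p of 0.00235 and edgeR 0.0685, and over 21 alternatives it ranged from 0.00235 to 0.312. With each liver omitted in turn, limma still called the row 3 of 11 times and DESeq2 11 times. With the lower-case livers the log2 fold change was -0.69 and limma did not call the row (adjusted p = 0.312), while DESeq2 did (adjusted p = 0.0936).

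The rise and the fall that were largest in DESeq2 among rows that limma did not call are given as examples chosen after their values were seen. ENSRNOT00000077177 had 2486, 804, 1342, 918 and 615 normalized counts in air livers 1, 2, 5, 7 and 8, and 4238, 1781, 2455, 1542, 1105 and 3795 in acrolein livers 9, 11, 13, 14, 15 and 16. The groups overlapped, with air replicate 1 above 4 acrolein livers and acrolein replicate 15 below air replicate 5. Its log2 fold change in limma was 1.03 with a standard error of 0.37 (limma, adjusted p = 0.167), and the adjusted p of DESeq2 was 0.0744, the lowest of its 21 alternatives, of which the highest was 0.350. With the lower-case livers alone limma gave a log2 fold change of 1.28 and did not call the row (adjusted p = 0.350), and DESeq2 called it (adjusted p = 0.0374). DESeq2 called it 5 of 11 times with each liver omitted in turn.

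ENSRNOT00000025094 had 3095, 3491, 1698, 1280 and 1963 normalized counts in air livers 1, 2, 5, 7 and 8, and 869, 1265, 1215, 654, 1509 and 822 in acrolein livers 9, 11, 13, 14, 15 and 16. The groups overlapped through air replicate 7 and acrolein replicate 15, and the capital-labelled air replicates 1 and 2 were the highest livers. Its log2 fold change in limma was -1.09 with a standard error of 0.27 (limma, adjusted p = 0.120), and the adjusted p of DESeq2 was 0.00722, the lowest of its 21 alternatives, of which the highest was 0.423. edgeR called the row (adjusted p = 0.0799). With each liver omitted in turn, DESeq2 called it 11 of 11 times and limma 2 times. With the lower-case livers alone the log2 fold change was -0.68 and the row was called by neither tool (adjusted p = 0.423 by limma and 0.296 by DESeq2).

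**Figure D3:**
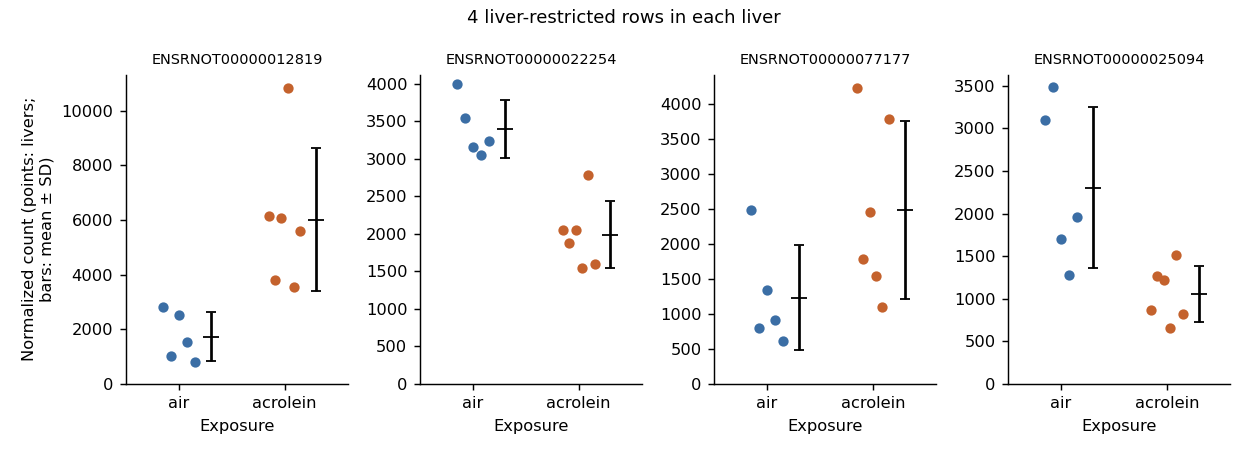
Normalized counts of 4 liver-restricted rows in each liver, on axes that start at 0, for 5 air and 6 acrolein livers (points) with mean ± SD (bars). The groups do not overlap for ENSRNOT00000012819 and ENSRNOT00000022254 and overlap for ENSRNOT00000077177 and ENSRNOT00000025094.

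The acrolein livers lay wholly above or below the air livers in 9 of the 243 rows, 3 with acrolein above and 6 with acrolein below air. This is 3.70%, against 2.49% of all rows tested and 4.06% of the other rows of at least 60 CPM. Rows above air were 1.23% of the 243, against 1.25% of all rows, and rows below air were 2.47%, against 1.24%.

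In the other tissues the liver-restricted rows were low by the rule that chose them, and the order of tissues rested on 1 sample. The level in air liver was 20.3 to 815 times that in the next highest tissue, with a median of 311 times, and 185 rows were at least 100 times higher. Hippocampus was the next highest tissue in 138 rows, nasal epithelium in 26, adipose and lung in 23 each, adrenal in 17, hypothalamus in 11 and muscle in 5. Without hippocampus air replicate 2, hippocampus was the next highest in 8 rows and adrenal in 96, the median was 435 times and the highest 2147 times. The same 243 rows were chosen with and without that sample. At the limits, the 3 rows just inside 20 times were at 20.3, 20.4 and 22.1 times and the 3 just outside at 19.97, 18.99 and 18.8 times. The 3 rows just inside 60 CPM had 62.2, 62.2 and 63.7 CPM, and the 3 just outside had 59.9, 59.8 and 59.7 CPM.

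Some rows were listed at 0 in all air samples of a tissue: 48 in nasal epithelium, 38 in hypothalamus, 4 in adipose and 3 in muscle, and none in adrenal, hippocampus or lung. The median level of the 243 rows over the air samples was 0.0923 CPM in nasal epithelium, 0.0662 in hypothalamus, 0.241 in muscle, 0.414 in adipose, 0.427 in lung, 0.552 in adrenal and 1.07 in hippocampus. Without air replicate 2 the hippocampus median was 0.0448 CPM, and 64 rows were listed at 0 in all other air samples of that tissue. A few rows carried much of the sums: over the samples of a tissue, leaving out hippocampus air replicate 2, 50% of the summed level lay in 3 rows in adipose, 4 in nasal epithelium, 6 in hippocampus and lung, 9 in adrenal and hypothalamus, and 10 in muscle.

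The sum of the 243 rows differed widely between samples of the same tissue. In hippocampus it was 5093 CPM in air replicate 2 and between 213 and 814 CPM in the 11 other samples. In nasal epithelium it was 3226 CPM in acrolein replicate 12 and between 453 and 1373 CPM elsewhere, and in adipose 3657 CPM in acrolein replicate 10 and between 667 and 1176 CPM elsewhere. These 3 samples were far above the rest of their tissue, 1 in an air group and 2 in acrolein groups. In adrenal, air replicate 2 and acrolein replicate 12 had 1666 and 1567 CPM against 368 to 913 CPM in the others. Muscle ran from 75.4 to 602 CPM, lung from 734 to 1566 CPM and hypothalamus from 246 to 425 CPM, the narrowest range relative to its level.

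**Figure D4:**
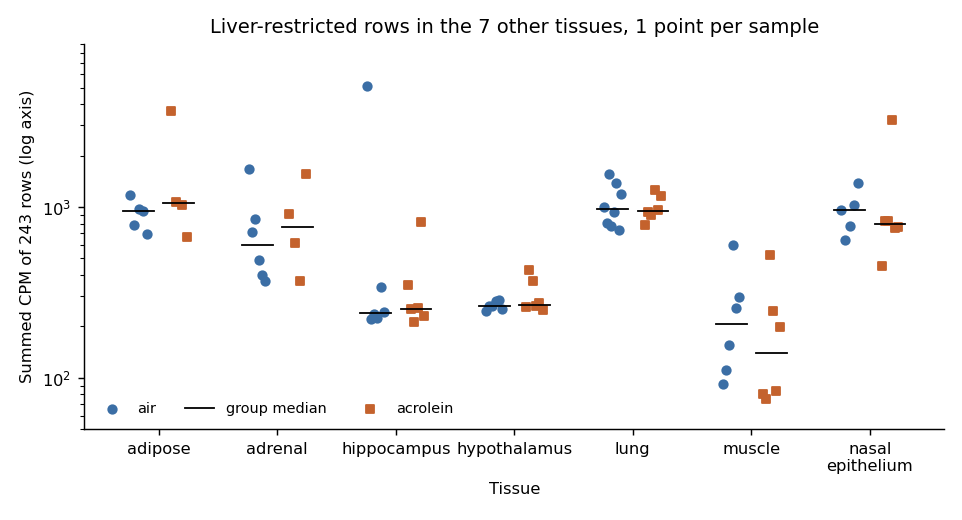
Summed CPM of the 243 liver-restricted rows (log axis) in each sample of the 7 other tissues, with air samples as circles, acrolein samples as squares and group medians as lines. Hippocampus air replicate 2 at 5093 CPM, adipose acrolein replicate 10 at 3657 CPM and nasal epithelium acrolein replicate 12 at 3226 CPM stand above the rest.

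In these 3 samples the rows were raised together and in the order of their liver level. As a share of its mean level in air livers, the median row stood at 13524 ppm in hippocampus air replicate 2, with quartiles of 11512 and 17258 ppm. All 243 rows were above 0 there and 225 had at least 1 CPM, against 109 to 209 rows above 0 in the 11 other samples. Across the 243 rows, the level in this sample followed the air liver level with a Spearman rho of 0.96, and the mean of the other hippocampus samples followed it with 0.268. The rows share their libraries and are not replicates. ENSRNOT00000109381 had 1237 CPM in this sample and 2.54 to 32.4 CPM in the others.

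Nasal epithelium acrolein replicate 12 had a median of 7913 ppm with quartiles of 6268 and 10361 ppm, with all 243 rows above 0 and a rho of 0.918 against 0.110 for the mean of the other samples. ENSRNOT00000109381 was at 657 CPM there and at most 3.44 CPM in the 10 other nasal samples. Adipose acrolein replicate 10 had a median of 7643 ppm with quartiles of 5762 and 9894 ppm, 242 rows above 0 and a rho of 0.899 against 0.703 for the others. In adipose the same row was well above 0 in every sample, from 141 to 836 CPM. The source of the liver-restricted rows in these samples was not tested.

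**Figure D5:**
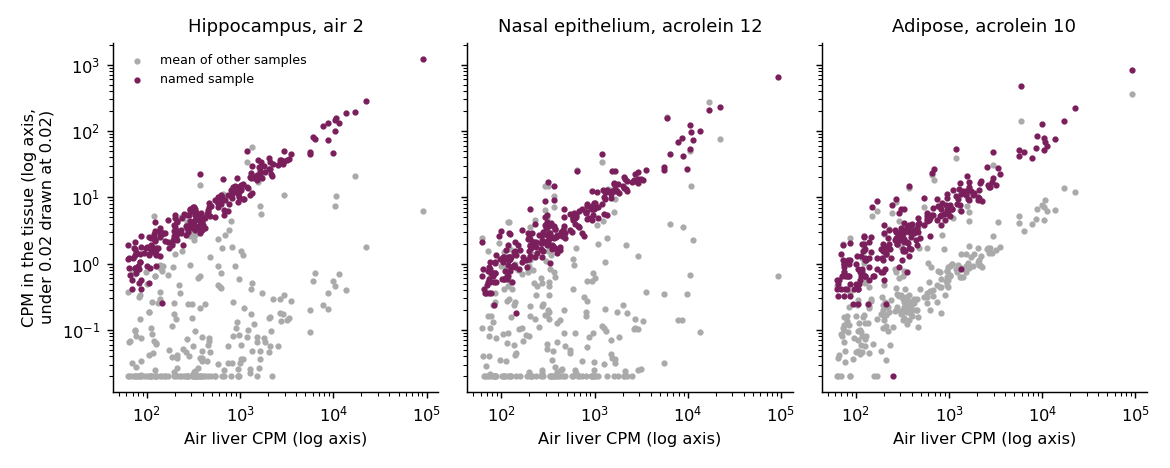
CPM of each of the 243 rows in 1 named sample (dark points) and the mean of the other samples of that tissue (grey points) against the mean CPM in air livers, on log axes, for hippocampus, nasal epithelium and adipose; values under 0.02 are drawn at 0.02. The dark points follow the liver level, with rho of 0.96, 0.918 and 0.899.

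Some other samples showed the same order at a lower level. In adrenal, the median row stood at 3516 ppm in air replicate 2 and 3373 ppm in acrolein replicate 12, with rho of 0.875 and 0.876, against 0 to 1697 ppm in the 8 others. In muscle, air replicate 6 and acrolein replicate 11 were at 1267 and 1266 ppm, with rho of 0.839 and 0.852. In lung, air replicates 3, 6 and 8 were at 2308, 1638 and 1372 ppm, with rho of 0.798, 0.775 and 0.724. The next highest lung sample was acrolein replicate 13, at 1130 ppm. In adrenal and muscle the highest air and the highest acrolein sample were thus close to each other. In hippocampus acrolein replicate 14, by contrast, the sum of 814 CPM came with a median of 107 ppm and a rho of 0.121, so it rested on few rows.

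Tested within each table, limma called 0 liver-restricted rows in adipose (241 tested), adrenal (243), hippocampus (231), hypothalamus (205), lung (243) and muscle (241). The background was 0.00499% in lung, 1 row, and 0.0% in the 5 others, and no other tool was run on these tables. An unadjusted p under 0.05 was found in 11, 7, 2, 6, 5 and 5 of them in the same order, where 2.71%, 7.54%, 4.31%, 2.69%, 7.67% and 2.99% of all rows reached it. These counts moved with single samples. In adrenal 36 of the 242 rows then tested reached it without air replicate 2, or 14.9% against 10.2% of all rows, and 4 of 243, or 1.65% against 4.34%, without acrolein replicate 12. In hippocampus it was 9 of 198 without air replicate 2, or 4.55% against 3.97%, and in adipose 6 of 235 without acrolein replicate 10, or 2.55% against 3.24%. Limma called 0 of the rows in each of these fits too. The median log2 fold change turned its sign without the sample that stood apart in hippocampus and adipose, and kept it in nasal epithelium and adrenal. The median log2 fold change of the rows was -0.61 in hippocampus and 0.23 without air replicate 2, 0.66 in adipose and -0.06 without acrolein replicate 10, and 0.82 in nasal epithelium and 0.18 without acrolein replicate 12. In adrenal it was 0.61, or 0.98 without air replicate 2 and 0.16 without acrolein replicate 12. Low values in the air samples of each tissue chose these rows, so higher values in acrolein samples were partly favoured by the choice.

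In nasal epithelium, which inhaled acrolein meets first, limma called 2 of the 227 liver-restricted rows tested, both higher. This is 0.881%, against 0.651% of all 20289 rows tested and 0.591% called higher, and 17 rows had an unadjusted p under 0.05, or 7.49% against 12.2%. Without acrolein replicate 12 it was 15 of 204 rows, or 7.35% against 9.89%, and the same 2 rows were called. The rule took rows that were low in the air samples of this tissue. Calls in the higher direction were thus partly favoured by the choice. ENSRNOT00000074357 had 0.818, 4.70, 0, 1.98 and 1.03 normalized counts in air samples 2, 4, 5, 6 and 8, and 23.2, 28.2, 7.78, 134, 9.10 and 17.1 in acrolein samples 9, 10, 11, 12, 14 and 15. Every acrolein sample was above every air sample, with replicate 12, which stood apart above, far higher than the rest. These were few reads, at most 5 in an air sample and 9 to 132 in the acrolein samples. The log2 fold change was 3.34 with a standard error of 0.68 (limma, adjusted p = 0.0632), and 2.83 without acrolein replicate 12 (limma, adjusted p = 0.0727). It was called 4 of 11 times with each sample omitted in turn.

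The other row, ENSRNOT00000080658, was listed at 0 in all 5 air samples and had 3.31, 10.6, 4.32, 62.0, 4.14 and 2.14 normalized counts in acrolein samples 9, 10, 11, 12, 14 and 15. It was above 0 in each acrolein sample, again highest in replicate 12, but with only 2 to 61 reads. The limma adjusted p was 0.0934, and 0.0312 without acrolein replicate 12, and the row was called 2 of 11 times with each sample omitted in turn. No fold is given against a group listed at 0.

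In liver both rows lay on the other side. ENSRNOT00000074357 had 16811, 22998, 9262, 11236 and 9079 normalized counts in air livers 1, 2, 5, 7 and 8, and 5974, 7163, 6956, 6867, 8518 and 6979 in acrolein livers 9, 11, 13, 14, 15 and 16. Every acrolein liver was below every air liver, and the capital-labelled air replicates 1 and 2 were the highest. Its log2 fold change was -0.88, not past the threshold in limma (adjusted p = 0.120) and called by DESeq2 (adjusted p = 0.00642) and by edgeR (adjusted p = 0.0809). ENSRNOT00000080658 had a log2 fold change of -0.64 in liver (limma, adjusted p = 0.161), and DESeq2 called it (adjusted p = 0.0741). With the lower-case livers alone, neither row was called by limma, DESeq2 or edgeR. The rule took rows high in air livers and low in nasal air samples, so it favoured a fall in liver and a rise in nasal epithelium. The tables of the 2 tissues were normalized separately, and the difference between the tissues was not tested.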

How the data were processed

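Per the labels and the methods of the study, the authors aligned reads to rn7 in Partek Flow with Ensembl transcripts, and ran DESeq2 in R 4.1.3. They deposited 1 table per tissue, whose unit is a signal, namely counted reads scaled by 1 factor per sample. All 92 sample columns were mapped by name, and the pair of adipose air samples numbered 8 was averaged. In liver, dividing by the smallest non-zero value of a column gave whole reads for 100% of values, within 0.01.

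The 243 rows and all lists were chosen with earlier results of these data known. Differences were tested by limma 3.58.1 (lmFit and eBayes with a trend) in R 4.3.3 on log2(normalized count + 1), over rows above 0 in at least 2 samples, with Benjamini-Hochberg adjustment over all rows tested. A fold change on this scale understates changes of low rows. The files hold normalized values, so limma was the test, with edgeR 4.0.16 and DESeq2 1.42.0, run on the liver reads so recovered, as alternatives. The 7811 liver rows without a DESeq2 adjusted p were left out of its counts. The functions were tested on simulated data. Each sample was taken as 1 rat; where samples share an animal or culture the p-values measure only the spread between samples. Depth was 9035061 to 25850677 reads per liver.

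Rows named by rule were the largest 2 rises and 2 falls that limma called in liver, of which there was 1 each; other rows named were chosen after their values were seen. Functional lists and cell type markers, listed by symbol, were not computed, since 0 identifiers matched. Alternatives were the pseudocount (0.1 and 10), the filter, scaling, each sample left out, the lower-case livers, and other limits for choosing the rows.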

Additional observations from a re-analysis of the deposited data

Results flagged for a closer look

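Samples far from the others of their group were looked for in 32 groups, and chance alone marks about 1 group in 20. That rate does not hold for single rows that were named for their values. The number found was 8. In 5 of these the summed level of the 243 liver-restricted rows stood apart in a sample of another tissue. These were hippocampus air replicate 2 at 5093 CPM, next to 342 CPM in the nearest air sample, nasal epithelium acrolein replicate 12 at 3226 CPM, next to 833 CPM, and adipose acrolein replicate 10 at 3657 CPM, next to 1070 CPM. The others were adrenal air replicate 2 at 1666 CPM, next to 854 CPM, and hippocampus acrolein replicate 14 at 814 CPM, next to 351 CPM.

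In liver, ENSRNOT00000012819 stood apart in acrolein replicate 14 at 10817 normalized counts, next to 6140. In nasal epithelium, acrolein replicate 12 stood apart for ENSRNOT00000074357, at 134 normalized counts next to 28.2, and for ENSRNOT00000080658, at 62.0 next to 10.6. This is the nasal sample whose summed level also stood apart, so these 3 values are not separate observations.

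ENSRNOT00000074357 had log2 fold changes of opposite sign in 2 tissues. It was 3.34 in nasal epithelium, with every acrolein sample above every air sample, and -0.88 in liver, with every acrolein sample below every air sample. The nasal values were few reads, at most 5 in air samples and 9 to 132 in acrolein samples. In liver DESeq2 and edgeR called the row with all livers, and no tool called it with the lower-case livers alone. Both directions were partly favoured by the rule, which took rows high in air livers and low in nasal air samples. The difference between the 2 tissues was not tested.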

How the results depend on the processing

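No paired analysis was possible because no replicate number occurs in both groups: numbers 1 to 8 are air samples and 9 to 16 acrolein samples. The count of 2 liver-restricted rows called by limma was 0 with a pseudocount of 10, with no filter on low values and with the lower-case livers, 1 after either rescaling to a common total and with a liver limit of 200 CPM, 7 with a mean of at least 10 and with edgeR, and 40 with DESeq2. With each liver omitted in turn it lay between 0 and 32, the highest without air replicate 5 and the next, 17, without air replicate 7. DESeq2's 40 ranged from 12 (without air replicate 1) to 63 (without air replicate 5) and was 5 with the lower-case livers. edgeR's 7 ranged from 0 to 41, the highest without air replicate 5 and the next, 25, without air replicate 7, and was 0 with the lower-case livers. The share of all rows that edgeR called with 1 liver left out was not counted, so its 41 and 25 have no background. The leave-one-out and lower-case fits of DESeq2 and edgeR were chosen after seeing the data. The count of 2 in nasal epithelium ranged from 0 to 2 with 1 sample left out, and was 2 without acrolein replicate 12. The cause of these changes was not tested, except where fewer rows or samples are the alternative itself. The difference in share between livers kept its sign under all 13 alternatives, between -1.17 and -0.10 percentage points, and the median log2 fold change under all 22, between -0.15 and -0.03. The number of rows was 168 to 277 under other limits and 239 to 248 with 1 air liver left out. The alternatives for functional groups were not run. Depth was lowest in air replicate 5, at 9035061 reads, and its part in these results was not tested.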
